A study of Mus musculus with 48 samples.

Results

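The genes described here are 6 of the SOCS family (Cish, Socs1, Socs2, Socs3, Socs5 and Socs6) and the kinase gene Pim1, which act as feedback genes of cytokine signalling. All probe sets whose annotation gives 1 of these symbols and no other were taken, 18 of the 45101 on the array, for 7 of its 18194 genes with such probe sets. Of the 18, 16 passed the filter on low values (at least 4 arrays with a value over that array's median) and were tested, with at least 1 for each of the 7 genes. The 2 that did not pass are Socs2 probe sets. Where a gene has several tested probe sets, the one with the highest mean over all arrays is called its leading probe set. Suffixes in a probe set's name mark shared probes: _a_at may match alternative transcripts of the gene, _s_at several transcripts, and _x_at other sequences as well.

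RNA came from mouse embryonic fibroblast lines of littermate embryos of embryonic day 14.5 (strain 129/B6, whole embryo without head and organs). One genotype has Zfp36 intact (Zfp36 +/+, WT) and the other has it disrupted (Zfp36 -/-, KO). Each genotype appears from the labels to be 1 line, so what differs between them may belong to the line and not to Zfp36. Zfp36 encodes tristetraprolin (TTP), which binds AU-rich elements of mRNAs and hastens their decay. All cells of both lines were held for 16 h in 0.5% serum and given 10% serum for 90 min. Actinomycin D, which stops transcription, was then added, and RNA was taken at 0, 30, 60, 90 and 120 min. The labels and series text give conflicting doses of actinomycin D, so no dose is stated. Each sample combined 3 dishes, and 5 experiments on separate days, each with both lines, gave 48 arrays in 10 groups of line and time. Groups held n = 5 arrays, apart from KO at 0 min (no replicate 5) and KO at 60 min (no replicate 4) with n = 4.

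The deposited values are log2 signals, with array medians between 8.47 and 8.56. The highest 5th percentile of any array, 8.13, is used as the floor below which a level has no meaning here. The Zfp36 probe set itself read between 9.28 and 9.60 on the KO arrays at 0 min and between 9.69 and 10.14 on the WT arrays, and fell in both lines. The files do not say whether it lies in the disrupted part, so it does not check the labels. In their deviations from the group means, experiments 1 to 3 and experiments 4 and 5 stood partly apart. Between the lines, other-numbered experiments correlated at -0.11 to 0.45 within these sets and at -0.58 to 0.057 across them, and the ranges overlap. Values within these sets are given beside main results that differed between them. Fibroblast markers were high on average, with a mean level over all 8 of 11.13 to 11.29 in WT and 11.23 to 11.35 in KO. Of the 8, 7 were tested. Thy1 was near the floor, with group means of 8.06 to 8.14, and Pdgfra had group means of 8.68 to 10.43. Of the markers of other cells, 4 of 7 blood, 3 of 5 epithelial, 1 of 4 endothelial, 2 of 4 muscle and 3 of 4 neural genes passed the filter. No blood, epithelial or endothelial gene had a group mean over 8.80, and the part of such cells in the results was not tested. Of the neural genes Tubb3 was higher in KO at 0 min, by 0.86 (SE 0.077, adjusted p = 2.46e-12). Of the fibroblast markers Pdgfra was higher in KO at 0 min, by 1.18 (SE 0.099, adjusted p = 3.65e-13), and Pdgfrb (-0.26, adjusted p = 0.0149) and Vim (-0.16, adjusted p = 0.00525) were lower. Within experiments 1 to 3 neither Pdgfrb (-0.24, adjusted p = 0.12) nor Vim (-0.14, adjusted p = 0.0974) passed.

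Cytokine and growth hormone receptors signal through JAK kinases, which activate STAT transcription factors. STATs switch on SOCS genes, whose proteins carry an SH2 domain that binds phosphorylated receptors or JAKs and a SOCS box that recruits elongins B and C and a cullin 5 ubiquitin ligase. CIS (the Cish product) and SOCS2 are best known as STAT5-induced brakes on growth hormone and related receptors, SOCS1 as a brake on interferon signalling, and SOCS3 as the brake on gp130, the shared receptor chain of the IL-6 and LIF family. SOCS5 and SOCS6 are less tied to JAK-STAT signalling and have been linked to growth factor receptors. PIM1 is a serine/threonine kinase that needs no activating phosphorylation, so its activity depends largely on its amount. Its gene too is induced by STATs.

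The promoters of Cish and Socs3 are shown because both hold the palindrome TTCNNNGAA, the core of a STAT binding element, which reads the same on both strands. RefSeq promoter windows (GRCm38.p6, 250 bases before to 50 after each annotated start) were found for 4 of the 7 genes. Of 32851 windows of this length, 2726 (8.3%) hold the motif and 150 (0.457%) hold it at least 2 times. The Cish window holds it 2 times, with the first bases at positions 1 and 12 from the annotated start, and the Socs3 window once, 154 bases before the start. The windows of Socs1 and Pim1 do not hold these letters. Capitals mark the motif. The Cish sequence is chr9:107296409-107296688, forward strand, and the Socs3 sequence is chr11:117969502-117969530, reverse strand.
Cish: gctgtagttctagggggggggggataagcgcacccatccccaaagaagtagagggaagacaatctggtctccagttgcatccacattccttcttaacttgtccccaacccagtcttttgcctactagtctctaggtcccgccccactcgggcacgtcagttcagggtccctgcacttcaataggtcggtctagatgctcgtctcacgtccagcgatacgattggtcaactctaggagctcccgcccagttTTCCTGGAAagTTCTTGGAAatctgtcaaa
Socs3: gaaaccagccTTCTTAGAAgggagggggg
A match is a description of the letters and was not tested as a binding site.

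After actinomycin D the signal of all 7 genes fell in both lines, at different rates. How far the rates differed depended on the handling of background. With each array's 5th percentile subtracted, the WT change in log2 signal per h was -0.82 for Socs1 and -0.86 for Socs5. Without the subtraction these were -0.28 and -0.69. Among the 7 leading probe sets in WT, Socs3 stayed the steepest (-1.77 with it) and Socs2 the least steep (-0.37). The slope of log2 signal on time in hours was below 0 and past the threshold (limma, Benjamini-Hochberg adjusted p under 0.05 over all 27500 probe sets tested) for 13 of the 16 probe sets in WT, where 15.1% of all probe sets fell, and for 12 of the 16 in KO, where 12.3% did. The 3 probe sets that did not fall in WT, Socs2 1441476_at and 1446085_at and Socs6 1452764_at, had group means of at most 8.64 throughout. With the experiment as a block Socs6 1452764_at fell in WT (-0.063, adjusted p = 0.0147) and Socs2 1449109_at in KO (-0.059, adjusted p = 0.0291). In KO the fall of the leading Socs2 probe set did not pass within experiments 1 to 3 (-0.081, adjusted p = 0.0608). Nor did it within experiments 4 and 5 (-0.084, adjusted p = 0.0532). The fall of Cish in KO missed within experiments 4 and 5 (-0.19, adjusted p = 0.0529) and without the arrays at 0 min (-0.15, adjusted p = 0.0647). The median slope of the 7 leading probe sets was -0.55 per h in WT and -0.25 per h in KO, against medians over all probe sets of 0.016 and 0.0060. Array medians stayed between 8.47 and 8.56 at all times, so slopes are relative to the typical probe set. They do not show how far mRNA as a whole decayed. Before actinomycin D, 8 of the 16 probe sets, of 5 genes, were lower in KO (11.9% of all) and 0 higher (13.4% of all; 1 at an unadjusted p under 0.05 in limma). The median difference at 0 min was -0.28 over the 16 and 0.0096 over all. In bulk samples a lower share of cells with a transcript and less of it per cell cannot be told apart.

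A fall was called slower in KO where the slope difference, KO minus WT, lay above 0 and WT fell, each past the threshold. The opposite call, faster in KO, needed a negative slope difference and a fall in KO, both past the same threshold. Slower falls were called for 3 of the 16 probe sets, those of Cish and both of Socs5, against 0.724% of all probe sets. Faster falls were called for 0 of the 16 by limma, and for 0 at an unadjusted p under 0.05 as well, against 0.229% of all. The slope in each of the 5 KO experiments lay above that in each of the 5 WT experiments for 4 probe sets, those 3 and the leading one of Pim1, where 1.89% of all probe sets showed this.

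**Figure D1:**
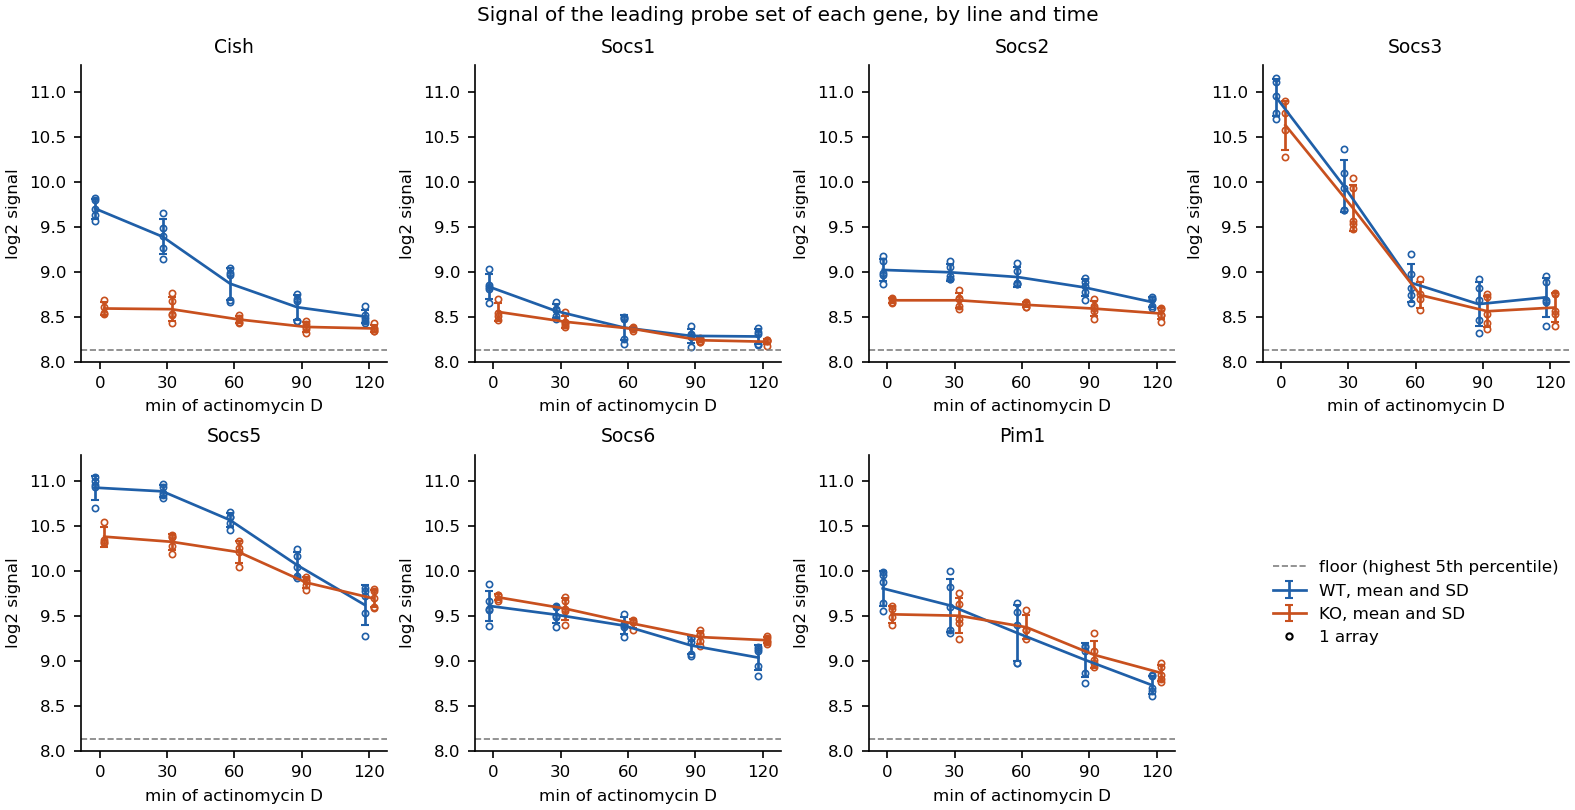
Log2 signal of the leading probe set of each of the 7 genes against min of actinomycin D, with WT in blue and KO in orange. Circles are arrays, lines join group means, bars are SD and the dashed line is the floor at 8.13. Cish starts far apart in the lines (9.70 in WT and 8.59 in KO) and Socs3 falls nearly together in both.

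Cish showed the widest gap between the lines. At 0 min the WT arrays of experiments 1 to 5 read 9.70, 9.80, 9.82, 9.56 and 9.63, and the KO arrays of experiments 1 to 4 read 8.54, 8.53, 8.61 and 8.69. Every KO array lay below every WT array, as for 8.34% of all probe sets. Cish was also lower in KO at 30 min (-0.81, adjusted p = 2.43e-12) and 60 min (-0.40, adjusted p = 7.47e-05). At these times 12% and 12.8% of all probe sets were lower. Within experiments 4 and 5 the difference at 60 min did not pass (-0.16, adjusted p = 0.0751). The difference at 0 min was -1.11 (SE 0.077) on the log2 scale, a level 2.16-fold lower in KO (limma, adjusted p = 8.12e-16). It was -1.22 within experiments 1 to 3 and -0.91 within experiments 4 and 5, past the threshold in both.

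By 120 min the WT arrays of Cish had come down to 8.43, 8.62, 8.52, 8.45 and 8.48, and the KO arrays read 8.34, 8.38, 8.36, 8.34 and 8.43. The ranges then met, and the difference of -0.13 did not pass the threshold (adjusted p = 0.162). The slopes of the 5 experiments ran from -0.67 to -0.58 per h in WT and from -0.21 to -0.092 in KO. These ranges did not overlap. The fitted slopes were -0.64 (SE 0.037) in WT and -0.13 (SE 0.039) in KO. Their difference of 0.51 (SE 0.054, adjusted p = 3.66e-09) was 9th highest of all probe sets tested. It was 0.55 within experiments 1 to 3 (adjusted p = 1.84e-10) and 0.41 within experiments 4 and 5 (adjusted p = 0.0297).

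The KO line began the chase at a level the WT line reached late. KO at 0 min (8.59 ± 0.073 SD, n = 4) stood 0.46 above the floor, next to WT at 90 min (8.61 ± 0.14 SD, n = 5). All KO group means of Cish, 8.37 to 8.59, lay below the highest group mean of a blood marker, 8.80. How much of the KO signal was background was not tested. From 90 to 120 min the mean of WT changed by -0.10. That of KO changed by -0.00785 over its first 30 min and by -0.12 over its first 60 min. The low starting level and the slope move together, and their parts in the difference cannot be told apart by the slope alone. With each array's 5th percentile subtracted as background the slope difference was 0.84 (adjusted p = 1.47e-06). Cish was also the only one of the 16 probe sets whose change from 0 to 60 min differed between the lines (0.71, SE 0.11, adjusted p = 0.000114), as it did upward for 0.102% of all probe sets. Ordered by level, the 10 groups of Cish parted once beyond their ranges, between WT at 30 min (9.39) and WT at 60 min (8.87).

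Socs2, the closest relative of Cish in the family, was lower in KO but fell little. Its leading probe set, 1418507_s_at, read 9.12, 9.18, 8.87, 8.96 and 8.98 on the WT arrays at 0 min and 8.71, 8.66, 8.70 and 8.66 on the KO arrays, with no overlap. The difference was -0.34 (SE 0.055, adjusted p = 4.39e-06). A further probe set, 1449109_at, gave -0.34 (SE 0.062, adjusted p = 3.15e-05), also with no overlap. Every KO array lay below every WT array at 0 min for 8.34% of all probe sets.

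The gap in Socs2 lasted through most of the chase. At 90 min the leading probe set still differed by -0.24 (adjusted p = 0.000406), and at 120 min by -0.13, not past the threshold (adjusted p = 0.055) except with the experiment as a block (adjusted p = 0.0225). The probe set 1449109_at differed at all 5 times, by -0.23 at 120 min (adjusted p = 0.00154). Its difference at 60 min, -0.29, did not pass within experiments 4 and 5 (-0.20, adjusted p = 0.14). The slopes of the leading probe set were -0.18 in WT and -0.079 in KO, and their difference of 0.098 (SE 0.034, 95% interval 0.030 to 0.17) did not pass the threshold (adjusted p = 0.232). The Socs2 probe sets 1441476_at, 1438470_at and 1442586_at had group means spanning at most 0.10. The last of these lay below the floor in all 10 groups, and 1438470_at and 1442586_at were not tested. A difference of -0.13 at 120 min in 1446085_at (adjusted p = 0.0227) concerned group means of 8.51 and 8.64, near the array medians.

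Socs1, the strongest inhibitor of JAK kinases in the family, was dim, with a mean of 8.83 ± 0.14 (SD, n = 5) in WT at 0 min. The WT arrays at 0 min read 9.03, 8.85, 8.83, 8.81 and 8.65 and the KO arrays 8.51, 8.55, 8.46 and 8.70. The ranges overlapped through the KO array of experiment 4 and the WT array of experiment 5. The difference was -0.28 (SE 0.057, adjusted p = 0.000166) over all experiments and -0.40 within experiments 1 to 3 (adjusted p = 1.92e-07), but -0.03 within experiments 4 and 5 (adjusted p = 0.837). From 60 min on the lines were within 0.06 of each other. The slope difference of 0.10 (SE 0.040, 95% interval 0.024 to 0.18) did not pass the threshold (adjusted p = 0.337).

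Socs3 was the fastest-falling gene of the 7, and it fell in the 2 lines at rates that could not be told apart. The leading probe set, 1455899_x_at, read 10.77, 11.11, 10.96, 10.70 and 11.15 on the WT arrays at 0 min and 10.58, 10.77, 10.27 and 10.90 on the KO arrays. At 60 min the WT arrays read 8.74, 8.82, 8.66, 8.97 and 9.20 and the KO arrays 8.76, 8.58, 8.70 and 8.93. The lines overlapped at all 5 times.

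By 60 min 92.7% of the 120 min fall of Socs3 was over in WT and 93.2% in KO, and by 30 min 44.2% and 45.4%. The slopes were -1.15 per h (SE 0.11) in WT, 16th lowest of all probe sets tested, and -1.01 (SE 0.12) in KO, 21st lowest. A straight line understates the early rate because most of the fall came before 60 min: from 60 to 120 min the group means changed by -0.16 in WT and -0.14 in KO, and lay between 8.56 and 8.88. The slope difference was 0.14 (SE 0.16, 95% interval -0.19 to 0.46, adjusted p = 0.852). The interval is wide enough to hold a slope difference as large as that of Socs5. From 0 to 60 min the change was -2.06 in WT and -1.89 in KO, a difference of 0.17 (SE 0.20).

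At 0 min 2 of the 3 Socs3 probe sets were lower in KO. The probe sets 1456212_x_at and 1416576_at differed by -0.37 (SE 0.10, adjusted p = 0.00516) and -0.29 (SE 0.090, adjusted p = 0.013), and the leading one by -0.31 (SE 0.14, adjusted p = 0.112). These differences came from experiments 1 to 3, where they were -0.47, -0.45 and -0.40, all past the threshold. Within experiments 4 and 5 they were -0.06, 0.02 and -0.02, none past it, and without replicate 3 neither of the former 2 calls held (-0.23, adjusted p = 0.123, and -0.14, adjusted p = 0.328). At 30 min 1455899_x_at and 1456212_x_at differed by -0.24 (adjusted p = 0.193) and -0.20 (adjusted p = 0.126), and with the experiment as a block both passed (adjusted p of 0.0351 and 0.0375).

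Change over the first 30 min set Socs3 apart from the slower genes. In WT 5 of the 16 probe sets were already lower at 30 than at 0 min, the 3 of Socs3 with those of Cish and Socs1, against 1.77% of all probe sets. The change of Cish, -0.31, did not pass without replicate 3 (-0.28, adjusted p = 0.121), and that of Socs1, -0.27, without replicate 1 (-0.23, adjusted p = 0.0521) or within experiments 4 and 5 (-0.21, adjusted p = 0.0717). In KO the 3 of Socs3 were lower, against 1.25% of all. Within experiments 4 and 5 the changes of 1455899_x_at (-0.91, adjusted p = 0.188) and 1456212_x_at (-0.82, adjusted p = 0.0635) in KO did not pass. By 60 min 9 of 16 were lower in WT (6.07% of all) and 4 of 16 in KO (4.85% of all), where the leading Socs6 probe set joined those of Socs3. The change of Socs6 missed without replicate 1 in KO (-0.30, adjusted p = 0.0515), and in WT without replicate 1, 2, 4 or 5 (-0.23 to -0.19, adjusted p of 0.063, 0.0804, 0.148 and 0.0827). With the experiment as a block Socs1 (-0.18, adjusted p = 0.0464) and Socs5 1423349_at (-0.18, adjusted p = 0.0499) also passed over 60 min in KO, as did Pim1 1423006_at in WT (-0.18, adjusted p = 0.0124).

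**Figure D2:**
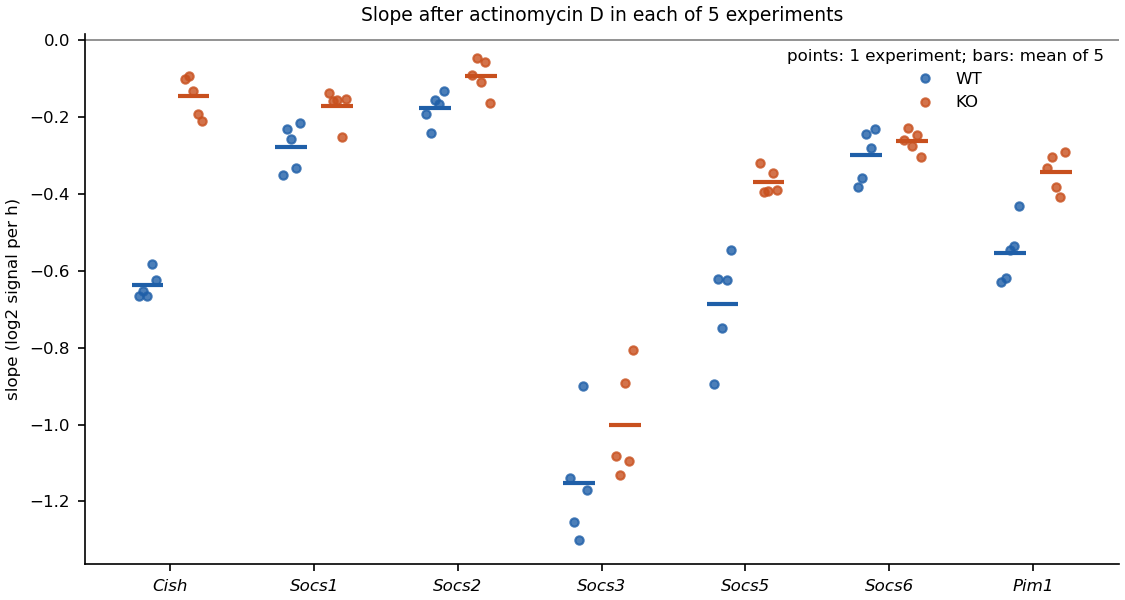
Slope of log2 signal per h after actinomycin D in each of the 5 experiments, for the leading probe set of each gene, with WT in blue and KO in orange. Points are experiments and bars their means. The KO points lie above all WT points for Cish, Socs5 and Pim1 and overlap them for Socs3 and Socs6.

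Socs5, linked to the EGF receptor and to IL-4 signalling, was bright and fell late. Its 2 probe sets differed in how far apart the lines stood at the start and gave slope differences within 1 SE of each other. On the leading one, 1423350_at, the WT arrays at 0 min read 11.002, 11.048, 10.94, 10.96 and 10.71 and the KO arrays 10.34, 10.55, 10.32 and 10.32. All KO arrays lay below all WT arrays at 0 min, as for 8.34% of all probe sets. The difference was -0.55 (SE 0.080, adjusted p = 5.56e-07), a level 1.46-fold lower in KO. At 30 and 60 min it was -0.56 (adjusted p = 7.61e-08) and -0.36 (adjusted p = 0.00054), where 12% and 12.8% of all probe sets were lower.

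At 120 min the same probe set read 9.28, 9.81, 9.53, 9.78 and 9.73 in WT and 9.78, 9.80, 9.59, 9.71 and 9.60 in KO, and the lines overlapped (difference 0.07, adjusted p = 0.502). On 1423349_at the start was close and the end apart. At 120 min its WT arrays read 9.16, 9.67, 9.29, 9.58 and 9.54 and its KO arrays 9.89, 9.84, 9.71, 9.81 and 9.83. Every KO array was then above every WT array, as for 12.7% of all probe sets, and the difference was 0.37 (SE 0.065, adjusted p = 1.41e-05). Its difference at 0 min, -0.18 (SE 0.069, adjusted p = 0.0486), fell short of the threshold without replicate 1, 3, 4 or 5 (adjusted p of 0.142, 0.0886, 0.185 and 0.116).

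The slope of Socs5 1423350_at was -0.69 per h (SE 0.043) in WT and -0.37 (SE 0.045) in KO, a difference of 0.31 (SE 0.062, adjusted p = 0.00202). That of 1423349_at was -0.67 (SE 0.038) in WT and -0.39 (SE 0.040) in KO, a difference of 0.29 (SE 0.055, adjusted p = 0.00141). Within experiments 1 to 3 the differences were 0.39 (adjusted p = 0.00789) and 0.30 (adjusted p = 0.0583), and within experiments 4 and 5 they were 0.22 (adjusted p = 0.365) and 0.26 (adjusted p = 0.0426). Without replicate 1 the call on 1423350_at was lost (0.25, adjusted p = 0.0632).

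Unlike Cish, Socs5 ended the chase well above the floor in both lines, by 1.49 in WT and 1.56 in KO on the leading probe set. Little of its fall came early: over the first 30 min 3.16% of the 120 min fall in WT and 8.28% in KO, and by 60 min 27.6% and 25.1%. From 60 to 120 min the mean of the leading probe set changed by -0.94 in WT and by -0.52 in KO. Over 120 min the changes of the lines differed by 0.62 (SE 0.11, adjusted p = 0.000779) on the leading probe set and by 0.55 (SE 0.095, adjusted p = 0.000451) on the other. The former did not pass without replicate 1 (0.48, adjusted p = 0.0726) or within experiments 4 and 5 (0.41, adjusted p = 0.326). With Cish (0.98, SE 0.11, adjusted p = 2.01e-08) both Socs5 probe sets were the 3 of 16 that differed this way, against 0.553% of all probe sets. For the change over 30 min 0 of the 16 differed in limma (2 at an unadjusted p under 0.05).

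**Figure D3:**
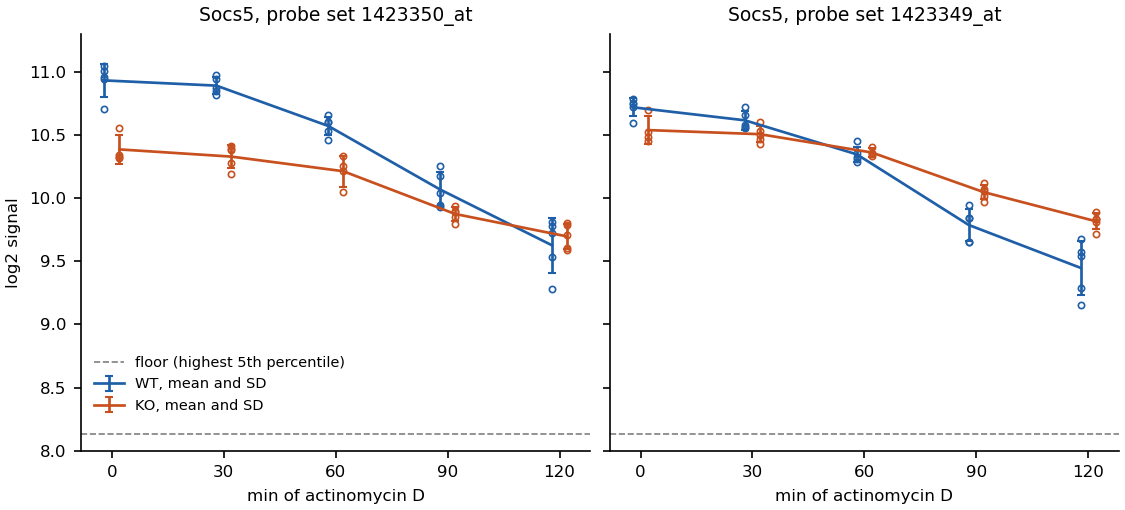
Log2 signal of the Socs5 probe sets 1423350_at (left) and 1423349_at (right) against min of actinomycin D, with arrays as circles, group means joined and SD as bars. The lines start 0.55 apart and meet on the left, and start 0.18 apart and cross on the right, where KO ends 0.37 above WT.

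Socs6, linked to the Kit and insulin receptors, had the smallest difference at 0 min among the 7 leading probe sets (0.10, adjusted p = 0.348). Its leading probe set, 1450129_a_at, read 9.58, 9.86, 9.39, 9.67 and 9.56 in WT at 0 min and 9.70, 9.74, 9.67 and 9.73 in KO, with full overlap. It fell by 0.30 per h in WT and 0.25 per h in KO, and the difference of 0.045 (SE 0.041, 95% interval -0.038 to 0.13) did not pass the threshold (adjusted p = 0.806). At 120 min it was higher in KO by 0.19 (SE 0.065, adjusted p = 0.0188), with every KO array above every WT array, as for 12.7% of all probe sets. The probe set 1435492_at was higher by 0.22 then (SE 0.069, adjusted p = 0.0114). Within experiments 1 to 3 and within experiments 4 and 5 the leading one did not pass (0.24, adjusted p = 0.0539, and 0.13, adjusted p = 0.112). Without replicate 1 neither passed (0.15, adjusted p = 0.17, and 0.18, adjusted p = 0.107), nor did the leading one without replicate 4 (0.20, adjusted p = 0.0535). At 0 min 1435492_at read 9.14, 9.13, 8.88, 9.16 and 9.11 in WT and 9.33, 9.18, 9.17 and 9.31 in KO, every KO array above every WT array, as for 9.62% of all probe sets. It differed by 0.16 (adjusted p = 0.106), and with the experiment as a block by 0.18 and past the threshold (adjusted p = 0.0214). Its change over 120 min in KO was -0.19 (adjusted p = 0.06), and with the block -0.20 and past it (adjusted p = 0.00889).

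Later in the chase the calls went in both directions. At 120 min 3 of the 16 probe sets were higher in KO, those 2 of Socs6 and 1423349_at of Socs5, against 18.7% of all. The 3 lower in KO then, against 13.4% of all, were Socs2 1449109_at and 1446085_at and Socs3 1416576_at. Those of Socs2 1446085_at (without replicate 1 or 4) and Socs3 1416576_at (without replicate 1, 2, 3 or 5) were lost on leaving out 1 replicate, and neither passed within experiments 4 and 5 (-0.03, adjusted p = 0.733, and -0.07, adjusted p = 0.588). These shares are near those of all probe sets. Between the ends of the chase, 4 of 16 were lower in KO at 30 min (12% of all), 4 at 60 min (12.8%) and 3 at 90 min (13.5%), and 1 was higher at 90 min (13.8%), Socs5 1423349_at. Of those lower at 90 min, Cish (-0.22, adjusted p = 0.0193) did not pass without replicate 1, 2 or 3 (adjusted p of 0.143, 0.0862 and 0.11), nor within experiments 4 and 5 (-0.02, adjusted p = 0.847). With the experiment as a block Socs5 1423350_at was lower too (-0.19, adjusted p = 0.0184, and 0.0509 without the block).

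**Figure D4:**
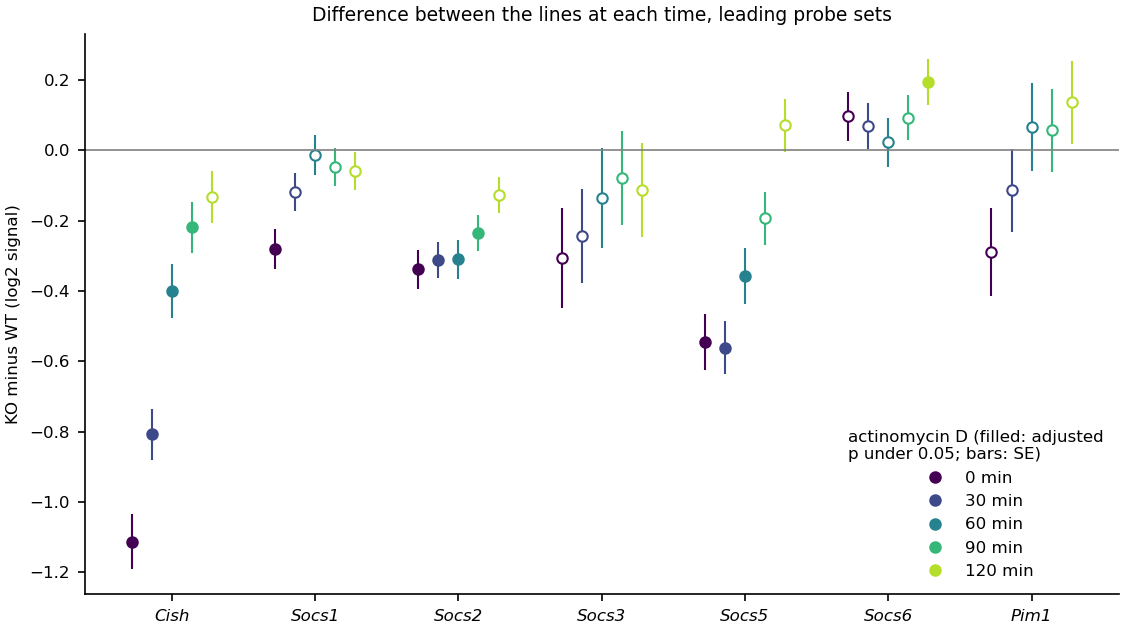
Difference between the lines, KO minus WT in log2 signal, of the leading probe set of each gene at 0, 30, 60, 90 and 120 min of actinomycin D, with SE as bars. Filled points have an adjusted p under 0.05. The difference of Cish shrinks from -1.11 to -0.13 and that of Socs5 goes from -0.55 to 0.07.

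Pim1 read lower at the start in KO in each of the 4 experiments with both arrays, and its slope was less steep there in all 5. Its leading probe set, 1435458_at, read 10.00, 9.96, 9.88, 9.65 and 9.56 in WT at 0 min and 9.61, 9.58, 9.49 and 9.40 in KO, and the ranges overlapped through the WT array of experiment 5. At 120 min WT read 8.67, 8.83, 8.85, 8.61 and 8.70 and KO 8.94, 8.98, 8.80, 8.77 and 8.84, the KO array above the WT array in 4 of the 5 experiments. The slope in the 5 experiments ran from -0.63 to -0.43 per h in WT and from -0.41 to -0.29 in KO.

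The slope difference of Pim1 was 0.20 (SE 0.075, 95% interval 0.046 to 0.35) and did not pass the threshold (adjusted p = 0.336). The experiments differed in level in both lines, and with the experiment as a block it was 0.21 and passed (adjusted p = 0.0263). The block changed the start in the same way: the difference at 0 min was -0.29 (SE 0.12, adjusted p = 0.0857) without it and -0.33 (adjusted p = 0.00276) with it. Within experiments 1 to 3 the slope difference was 0.26 (adjusted p = 0.0508), and within experiments 4 and 5 it was 0.11 (adjusted p = 0.834). The dimmer probe set 1423006_at showed a slope difference of 0.058 (SE 0.044, adjusted p = 0.757). At 0 min it differed by -0.13 (adjusted p = 0.211), and with the block by -0.15 and past the threshold (adjusted p = 0.0254). The block also brought past it the line difference in the 120 min change of Pim1 1435458_at (0.47, adjusted p = 0.0274, and 0.42, adjusted p = 0.354, without it).

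**Figure D5:**
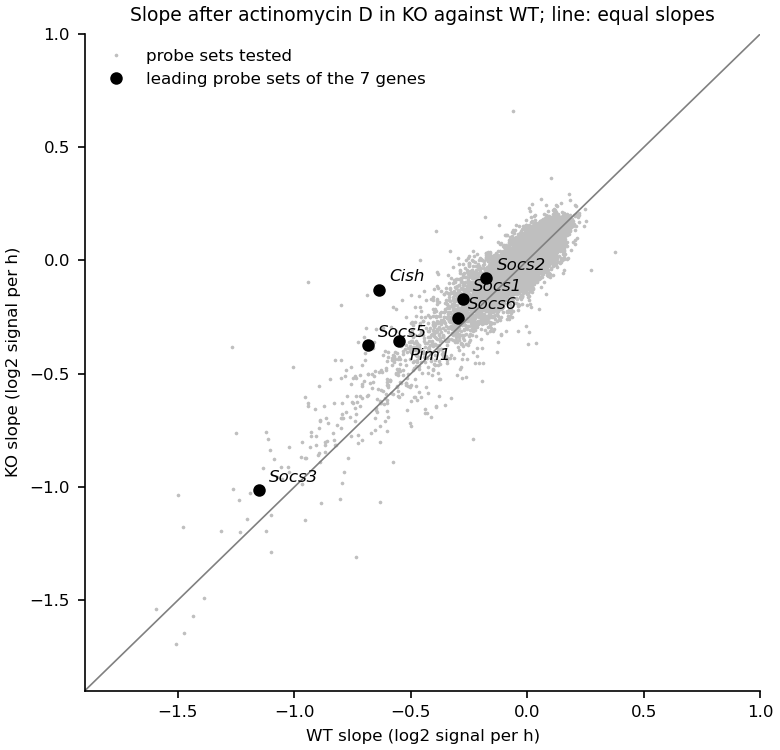
Slope in KO against slope in WT, in log2 signal per h, for all 27500 probe sets tested (grey) and the leading probe sets of the 7 genes (black), with the line of equal slopes. Cish (-0.64 in WT and -0.13 in KO) lies farthest above the line among the 7, and Socs3 (-1.15 and -1.01) lies near it among the fastest falls.

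The other genes of the pathway were taken from lists, with 1 leading probe set per gene. Of the ligands of the gp130 family, 5 of 8 were tested. At 0 min 3 were higher in KO, Il11 by 1.44 (SE 0.15, adjusted p = 2.65e-10), Lif by 0.81 (SE 0.17, adjusted p = 0.000229) and Clcf1 by 0.43 (SE 0.13, adjusted p = 0.0136), where 13.4% of all probe sets were higher. Lif did not pass within experiments 4 and 5 (1.11, adjusted p = 0.0613). Clcf1 differed by 0.22 within experiments 1 to 3, not past the threshold (adjusted p = 0.154), and by 0.99 within experiments 4 and 5 (adjusted p = 0.000374). Il6 was lower in KO (-1.002, adjusted p = 0.0363) over all experiments and higher by 0.46 (adjusted p = 0.0264) within experiments 4 and 5. Its difference did not pass without replicate 1 (-0.76, adjusted p = 0.211), 2 (-0.85, adjusted p = 0.182) or 3 (-0.91, adjusted p = 0.166). Clcf1 was the ligand called slower in KO (slope difference 0.37, SE 0.081, adjusted p = 0.00697), a call lost without replicate 1 (0.33, adjusted p = 0.156) or 2 (0.37, adjusted p = 0.0681) and within experiments 4 and 5 (0.25, adjusted p = 0.439). Without replicate 4 or 5 its difference at 0 min did not pass (0.29, adjusted p = 0.0758, and 0.38, adjusted p = 0.0641).

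Of 22 receptor genes 14 were tested, and 6 were lower and 1 higher in KO at 0 min, against 11.9% and 13.4% of all probe sets. The largest differences were in receptors of ligands of the gp130 family. Lifr, the LIF receptor, read 10.53 to 10.99 on the WT arrays at 0 min and 8.60 to 8.84 on the KO arrays, a difference of -1.998 (SE 0.14, adjusted p = 3.25e-16). Osmr, the oncostatin M receptor, read 10.72 to 10.92 and 9.13 to 9.56, a difference of -1.40 (SE 0.091, adjusted p = 7.16e-17). The oncostatin M gene, Osm, did not pass the filter and had group means of 8.28 to 8.34. Lower too were Il6st, which encodes gp130 (-0.34, adjusted p = 0.000804), Il13ra1 (-0.47, adjusted p = 0.000615) and Il15ra (-0.18, adjusted p = 0.0302), and Ifnar1 was higher by 0.19 (adjusted p = 0.00935). The differences of Lifr, Osmr and Il6st passed within both sets of experiments, and those of Il13ra1, Il15ra and Ifnar1 did not within experiments 4 and 5. Il15ra also missed within experiments 1 to 3 (-0.24, adjusted p = 0.0563) and without replicate 1 (-0.18, adjusted p = 0.0904), 3 (-0.066, adjusted p = 0.392) or 5 (-0.19, adjusted p = 0.0571), and Ifnar1 without replicate 1 (0.17, adjusted p = 0.0612).

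Of the 8 JAK and STAT genes tested of 11, 4 were lower in KO at 0 min (11.9% of all probe sets) and 0 higher (13.4% of all), and 0 fell after actinomycin D in either line. The limma counts of 0 were also 0 at an unadjusted p under 0.05. Stat5a, which with Stat5b is the main inducer of Cish in other cells, read 8.76 to 9.01 in WT and 8.38 to 8.61 in KO (-0.41, SE 0.067, adjusted p = 3.62e-06). Stat5b differed by -0.22 (adjusted p = 0.000185, and -0.18, adjusted p = 0.119, within experiments 4 and 5), Jak2 by -0.34 (adjusted p = 0.000636) and Stat3 by -0.46 (adjusted p = 0.00524). Without replicate 3 the difference of Stat3 did not pass (-0.27, adjusted p = 0.15).

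Of 15 other brakes and SOCS partners tested, 4 were higher and 3 lower in KO at 0 min, against 13.4% and 11.9% of all probe sets. Socs4, the closest relative of Socs5, was higher by 0.61 (SE 0.080, adjusted p = 4.69e-08), opposite to the direction of the 5 genes above. Lower were Eloc, the elongin C gene (-0.58, adjusted p = 6.23e-09), the adaptor gene Sh2b3 (-0.44, adjusted p = 1.38e-06) and Rnf7, the RING partner of cullin 5 (-0.24, adjusted p = 0.0066). The SUMO ligase gene Pias3 was higher by 0.36 (adjusted p = 3.04e-07) and the phosphatase gene Ptpn11 by 0.27 (adjusted p = 0.000147, and 0.14, adjusted p = 0.338, within experiments 4 and 5). Of the other Pim kinases, Pim2 was lower (-0.30, adjusted p = 1.25e-06).

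Of 11 genes known to be induced by STATs, 10 were tested, and 6 fell in WT (15.1% of all probe sets) and 6 in KO (12.3% of all). Those called slower in KO were Mcl1, a survival gene of the BCL2 family (0.30, SE 0.066, adjusted p = 0.00734), and Cebpd, a transcription factor gene (0.29, SE 0.078, adjusted p = 0.0458). Without replicate 1 neither passed (0.26, adjusted p = 0.125, and 0.26, adjusted p = 0.226), that of Mcl1 also missed without replicate 4 (0.31, adjusted p = 0.0527), and that of Cebpd without replicate 2, 3 or 4. Within experiments 1 to 3 neither passed (0.33, adjusted p = 0.0737, and 0.31, adjusted p = 0.0543), nor did Cebpd within experiments 4 and 5 (0.22, adjusted p = 0.297). At 0 min Bcl3 was higher in KO by 0.42 (adjusted p = 4.17e-08), and Timp1 was lower (-0.35, adjusted p = 0.0141), a call that did not hold without replicate 1, 2 or 3. Timp1 was lower within experiments 1 to 3 (-0.51, adjusted p = 3.25e-05), and within experiments 4 and 5 its difference had the opposite sign (0.11, adjusted p = 0.792).

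For the 4 genes whose 10 group means spanned at least 1 on the log2 scale, the 3 most similar of 459 other genes were taken by Pearson's r over the group means, which share their arrays. Cish was most like Dusp4 (r = 0.998), a MAP kinase phosphatase gene, Irx3 (0.972), a homeobox gene, and Arc (0.956). Dusp4 differed by -1.11 (SE 0.069) at 0 min and by 0.53 (SE 0.052, adjusted p = 4.07e-10) in slope, as Cish did by -1.11 and 0.51. Irx3 and Arc began lower in KO (-1.999 and -1.52) and had slope differences of 0.85 and 0.53.

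Socs3 was most like Snai1 (0.997), Sertad1 (0.997) and Clk1 (0.994), none of which passed for the slope difference (adjusted p of 0.855, 0.884 and 0.912). Socs5 was most like Fem1b (0.987), S1pr2 (0.982), a sphingosine-1-phosphate receptor gene, and Tle4 (0.977), a corepressor gene. Of these, S1pr2 (0.21, adjusted p = 0.00375) and Tle4 (0.32, adjusted p = 9.21e-06) were past the threshold for the slope difference, and Fem1b was not (0.16, adjusted p = 0.449). Pim1 was most like Cebpb (0.986), Sgk1 (0.986) and Bcar1 (0.984), with slope differences of 0.25, 0.16 and 0.16, none past the threshold (adjusted p of 0.233, 0.289 and 0.349).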

How the data were processed

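RNA of 48 samples was hybridised to Affymetrix Mouse Genome arrays, per the labels' protocols from 1 ug of total RNA and 15 ug of labelled cRNA. The authors deposited log2 signals per probe set and array. Their probe summary, background correction and normalisation are not given in the sources used here. The highest value, 13.43, points to base 2 of the logarithm, which no source states. The depth of an array has no count; the number of arrays limits the precision. Symbols came from the platform annotation.

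Of 45101 probe sets, 64 controls were left out and 27500 that exceeded the median of the array on 4 or more arrays were tested (23140 with 1 symbol, 681 with several, 3679 with none). All 48 arrays entered each limma fit (version 3.58.1, in R 4.3.3 with the package data.table in version 1.17.8), whose empirical Bayes step was robust and followed the intensity trend. Slopes were fitted per line on hours, and levels with 1 mean per group. Tests were two-sided, adjusted by Benjamini-Hochberg over the probe sets tested, with a threshold of 0.05. Errors are SE of the fit or SD over arrays, and intervals are 95% from the moderated t distribution. The code was tested on simulated data.

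Replicate numbers name experiments that ran both lines on the same day. Deviations of same-numbered arrays from the group means correlated at 0.12 to 0.60, above 0.1 in all 5 pairs. Other numbers within experiments 1 to 3 or within experiments 4 and 5 correlated at -0.11 to 0.45. These ranges overlap, so the correlations alone do not show that the numbers pair the samples. The main fit has no block, and the fit with it is given for the 15 member calls that it changed. The members and lists were chosen with earlier results of these data known. Named in full are all probe sets of the members. Of each list, the genes called in slope were named first, then those with the largest differences at 0 min past the threshold, at most 6. Alternatives were the replicate block, leaving out each replicate or the arrays at 0 min, other filters, background subtraction, quantile normalisation, a plain prior and each set of experiments. The change from 0 to 60 min was added after seeing the data.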

Additional observations from a re-analysis of the deposited data

Results flagged for a closer look

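For Cish the slope difference between the lines was 0.51 and the difference of the changes from 0 to 120 min 0.98, each past the threshold in a test of the difference itself. For Socs5 the slope differences were 0.29 (1423349_at) and 0.31 (1423350_at), and the differences of the changes from 0 to 120 min 0.55 and 0.62, tested in the same way.

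Of the 70 groups of arrays of the leading probe sets, 2 held an array far from the rest, where chance gives about 1 in 20 groups. Socs1 in KO at 120 min read 8.17 in experiment 3 and 8.23 to 8.24 in the others. Socs5 in KO at 0 min read 10.55 in experiment 2 and 10.32 to 10.34 in the others, which lies on the side of the WT arrays.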

How the results depend on the processing

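Over 272 fitted values of the 16 probe sets and 14 alternatives, 3378 outcomes kept their direction where called and their side of the threshold, 79 lost a call, 41 gained one and 1 reversed. The reversal was the difference of Socs3 1416576_at at 0 min, 0.021 within experiments 4 and 5. Another 147 of opposite sign were past the threshold in neither fit. The slope difference of Cish passed in all 14, from 0.41 to 0.84, and its difference at 0 min in all 13 that apply, from -1.97 to -0.91. Counts of the 16 probe sets slower in KO (3) ran from 2 to 4, with 4 under the replicate block, where Pim1 joined; faster stayed at 0. Those lower in KO at 0 min (8) were 5 with background subtracted, 5 in experiments 4 and 5, and 5 to 8 leaving out 1 replicate, lowest without replicate 3. Those higher at 0 min (0) became 1 with quantile normalisation and 1 with the replicate block. Those lower at 120 min (3) were 6 in experiments 1 to 3, 1 in experiments 4 and 5, and 1 to 2 leaving out 1 replicate. Those higher at 120 min (3) were 1 to 3, lowest without replicate 1. The 3 lower at 30 min in KO became 1 in experiments 4 and 5. The 12 falling in KO became 13 with the replicate block and 11 with the strict filter. They became 11 in experiments 1 to 3, 10 in experiments 4 and 5 and 10 without the arrays at 0 min. Over all probe sets, 199 were slower in KO, and 365 with the replicate block, 104 in experiments 1 to 3, 120 in experiments 4 and 5, 63 without the arrays at 0 min and 80 to 261 leaving out 1 replicate. The 63 faster in KO became 96 with the block, 25 with background subtracted, 40 with the strict filter, 31 without 0 min and 40 to 50 leaving out 1 replicate. The causes of these changes were not tested. Low signals limit what can be seen of Socs1, Socs2, Cish in KO at all times and late Cish in WT. Each genotype is apparently 1 line.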

Other observations

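Pathway genes outside the lists of called genes, chosen after their values were seen, fell at their own rates. Pim3, the third Pim kinase gene, had slopes of -0.91 per h in WT and -0.66 in KO, a difference of 0.26 (SE 0.074) that did not pass the threshold (limma, adjusted p = 0.0802), and was higher in KO at 120 min by 0.43 (adjusted p = 0.000484). Socs7, the closest relative of Socs6, fell in WT (-0.14 per h, adjusted p = 0.000513), had a slope of -0.0024 in KO, and was higher in KO at 120 min by 0.38 (adjusted p = 7.14e-05); its slope difference of 0.14 did not pass (adjusted p = 0.2). The STAT target genes Junb and Myc fell in both lines, by 1.32 and 1.10 per h in WT and by 1.19 and 1.12 in KO. Their slope differences of 0.12 (SE 0.11) and -0.02 (SE 0.14) did not pass (adjusted p of 0.811 and 0.978).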
